A study of Homo sapiens with 4 samples.

Results

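The nuclear factor I (NFI) genes NFIA, NFIB, NFIC and NFIX were described in Huh7, an established human hepatocellular carcinoma cell line, with and without a short hairpin RNA (shRNA) against ACOT12. Members were chosen by gene symbol in the platform annotation: 4 genes read by 7 probes, of 19090 genes and 28264 probes on the array. NFIB had been picked because its values on both of its probes were lower in cells carrying the ACOT12 shRNA, so every NFIB value below describes that choice and carries no test. NFIA, NFIC and NFIX entered as the rest of the family. The data were 4 single-colour arrays. On 2 of them were Huh7 cells stably carrying the shRNA against ACOT12 (shACOT12), on the other 2 Huh7 cells stably carrying a scramble shRNA (scramble), the control. Both groups had been selected with puromycin for the same time and grown in the same serum-containing medium, per the labels and the series' design text. ACOT12 encodes a cytosolic acetyl-CoA thioesterase, and the series set out to look for genes under its control. Neither the number of shRNA sequences or clones nor separate cultures for the arrays of a group are given in the sources used here, so every p-value measures only the spread between these arrays, which may be technical.

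NFI proteins are transcription factors that bind DNA as homodimers or heterodimers of family members. They share a conserved N-terminal domain for DNA binding and dimerization, which is related in structure to the DNA-binding domain of the SMAD proteins, and differ more in their C-terminal parts, which activate or repress transcription. The preferred site is the palindrome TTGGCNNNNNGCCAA, and a single arm, TTGGC, is bound more weakly. In liver, NFI sites have long been known in the promoter of the albumin gene ALB, beside sites of other liver factors. In mouse, NFIA is known for astrocyte formation, NFIB for lung and brain development, NFIC for tooth root formation and NFIX for muscle and brain development.

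The promoter of NFIB is shown because the values below turn on this gene. NFIA is another member, and 1 of its 3 windows holds the same letters. The promoters of ALB and FN1 are shown because these genes had the largest changes among the NFI target genes at or above the median intensity. Each sequence is a window of 300 bases on GRCh38.p14 from RefSeq, 250 bases before to 50 bases from an annotated transcription start, written 5′ to 3′ on the strand of the gene. Capitals mark the NFI arm (TTGGC, or GCCAA on the other strand) and the CCAAT box (CCAAT or ATTGG). These overlap where they read GCCAAT or ATTGGC. The windows were picked by these letters. For NFIA, ALB and FN1 the window with the most NFI arms is shown. For NFIB the choice was also limited to windows with both an arm and a CCAAT box, so both were there by choice. The NFIB window is chr9:14322338-14322637 on the minus strand, the NFIA window chr1:61076977-61077276 on the plus strand, the ALB window chr4:73404037-73404336 on the plus strand and the FN1 window chr2:215436019-215436318 on the minus strand.
NFIB: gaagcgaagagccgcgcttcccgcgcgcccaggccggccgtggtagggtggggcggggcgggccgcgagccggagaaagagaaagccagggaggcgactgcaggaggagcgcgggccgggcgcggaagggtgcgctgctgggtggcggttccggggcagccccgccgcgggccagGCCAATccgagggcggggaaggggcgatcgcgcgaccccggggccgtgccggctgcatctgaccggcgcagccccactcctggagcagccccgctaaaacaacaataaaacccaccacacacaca
NFIA: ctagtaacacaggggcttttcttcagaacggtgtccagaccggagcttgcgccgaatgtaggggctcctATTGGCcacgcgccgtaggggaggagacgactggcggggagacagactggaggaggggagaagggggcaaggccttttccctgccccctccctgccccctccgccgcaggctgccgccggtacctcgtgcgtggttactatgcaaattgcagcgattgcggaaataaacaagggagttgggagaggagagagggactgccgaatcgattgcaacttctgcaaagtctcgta
ALB: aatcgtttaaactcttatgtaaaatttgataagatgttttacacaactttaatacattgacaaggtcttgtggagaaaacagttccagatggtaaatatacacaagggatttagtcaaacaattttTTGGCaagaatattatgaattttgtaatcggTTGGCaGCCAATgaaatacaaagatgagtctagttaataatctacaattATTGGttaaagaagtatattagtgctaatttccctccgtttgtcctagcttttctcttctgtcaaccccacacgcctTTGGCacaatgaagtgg
FN1: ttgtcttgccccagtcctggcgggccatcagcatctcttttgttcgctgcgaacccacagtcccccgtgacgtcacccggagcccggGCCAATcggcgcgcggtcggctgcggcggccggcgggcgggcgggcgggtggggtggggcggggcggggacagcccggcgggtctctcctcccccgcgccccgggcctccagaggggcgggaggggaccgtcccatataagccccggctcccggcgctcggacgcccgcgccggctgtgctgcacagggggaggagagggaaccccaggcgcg

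In the NFIB window a combined GCCAAT began 75 bases before the start, in the NFIA window ATTGGC began 181 bases before it, and in the FN1 window GCCAAT began 163 bases before it. The ALB window held 4 NFI arms, of which 3 began 124, 93 and 87 bases before the start; the last of these and the one before it lie on opposite strands, separated by a single base. RefSeq gave NFIB 10 such windows, 1 for each annotated start, NFIA 3, NFIC 1 and NFIX 5. An NFI arm was found in 6 of the 10 NFIB windows, 1 of 3 for NFIA, 0 of 1 for NFIC and 2 of 5 for NFIX, against 45.6% of all 35116 windows, so a match by itself is common. A CCAAT box was found in 2 of 10, 1 of 3, 0 of 1 and 1 of 5 of these windows, against 34.6% of all. The full palindrome, read with any 5 bases between its arms, was in 0 of the 19 windows of the 4 genes and in 0.0285% of all windows. These are matches of letters, not measured binding, and the start used in Huh7 cells and the transcript each probe reads were not tested.

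Gene values are log2 intensities after quantile normalization, and fold changes are shACOT12 minus scramble on the log2 scale. A gene with several probes was represented by the brightest, called the gene probe here. The median deposited intensity of the arrays lay between 327 and 451. With 2 arrays per group the smallest two-sided p of an exact permutation test is 0.333, and the number of arrays limits the precision of every value. Of the 19090 genes, 1 passed a limma adjusted p of 0.05, which is 0.00524% of those tested. This was RASD1, a Ras-related GTPase, and not NFIA, NFIC or NFIX, while NFIB carries no test. For 21.5% of genes the shACOT12 and scramble values lay apart, without overlap. The targeted gene, ACOT12, had log2 values of 7.58 and 7.37 on the shACOT12 arrays and 8.28 and 7.47 on the scramble arrays, so the groups overlapped. Its fold change was -0.40 (SE 0.35, limma adjusted p = 1), and without scramble replicate 1 it was 0.0039, so a lower ACOT12 mRNA was not detected. The array values therefore give no check of the knockdown, and the groups rest on the labels. All 13 hepatoma markers measured, among them ALB and AFP, were at or above the median of all genes, while 2 of 8 fibroblast, 0 of 7 endothelial and 3 of 7 leukocyte markers were. Groups lay apart for 5 of the 13 hepatoma markers, beside 21.5% of all genes. Of these, 2 were higher, among them ALB at 0.49, and 3 were lower, among them AFP at -0.78. The summed normalized intensity of the 8 fibroblast markers was 10823 and 9928 on the shACOT12 arrays and 6019 and 5994 on the scramble arrays, most of it from FBN1, which encodes fibrillin and stood at a fold change of 0.95. Of the 8, the values lay apart for 2 that were higher, FBN1 and DCN. They also lay apart for 3 that were lower, LUM at -0.58, PDGFRB at -0.44 and COL3A1 at -0.41. DCN, LUM, PDGFRB and COL3A1 were dim, with means of 5.83, 5.94, 7.70 and 4.78 against a median of 9.14 over all genes. The part of these marker differences in the results was not tested.

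NFIB, the member the choice rests on, was lower on both shACOT12 arrays by about the same amount at either probe. At its gene probe (PH_hs_0023617) the deposited intensity was 225 and 245 on the shACOT12 arrays and 655 and 736 on the scramble arrays. At its second probe (PH_hs_0038224) it was 121 and 214 on the shACOT12 arrays and 399 and 523 on the scramble arrays. In bulk RNA, fewer cells expressing a gene and less of its RNA per cell cannot be told apart. Every shACOT12 value lay below every scramble value at both probes. Of all probes on the same array, 44.1% and 38.8% were at or below the gene probe on the shACOT12 arrays, against 58.0% and 58.9% on the scramble arrays, so NFIB was read below the middle of the array with the ACOT12 shRNA and above it with the scramble shRNA.

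After normalization the NFIB gene probe stood at 8.08 and 7.64 on the shACOT12 arrays and 9.39 and 9.48 on the scramble arrays, means of 7.86 ± 0.31 and 9.43 ± 0.07 (SD, n = 2 each). The fold change was -1.58 (SE 0.30), which is 2.98-fold lower in shACOT12 cells. Normalization turned the order of the shACOT12 arrays, since the deposited value was the lower one on replicate 1. The second probe stood at 7.23 and 7.43 on the shACOT12 arrays and 8.68 and 8.98 on the scramble arrays, means of 7.33 ± 0.14 and 8.83 ± 0.21 (SD, n = 2 each), a fold change of -1.50 (SE 0.29 in the fit with a row per probe). The smallest distance between a shACOT12 and a scramble array was 1.31 at the gene probe and 1.25 at the second probe. Both were larger than the spread within either group, which the choice of NFIB favoured. Taken by replicate number, which does not pair the arrays by any label, the differences at the gene probe were -1.31 and -1.84, and those at the second probe -1.45 and -1.55. Of all genes, 32 had a lower fold change than NFIB. Among the 5751 genes with several probes, 4, or 0.0696%, had every probe at least 2-fold lower without overlap: NFIB, by choice, and BCAS1, GSTA2 and MARK1.

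**Figure D1:**
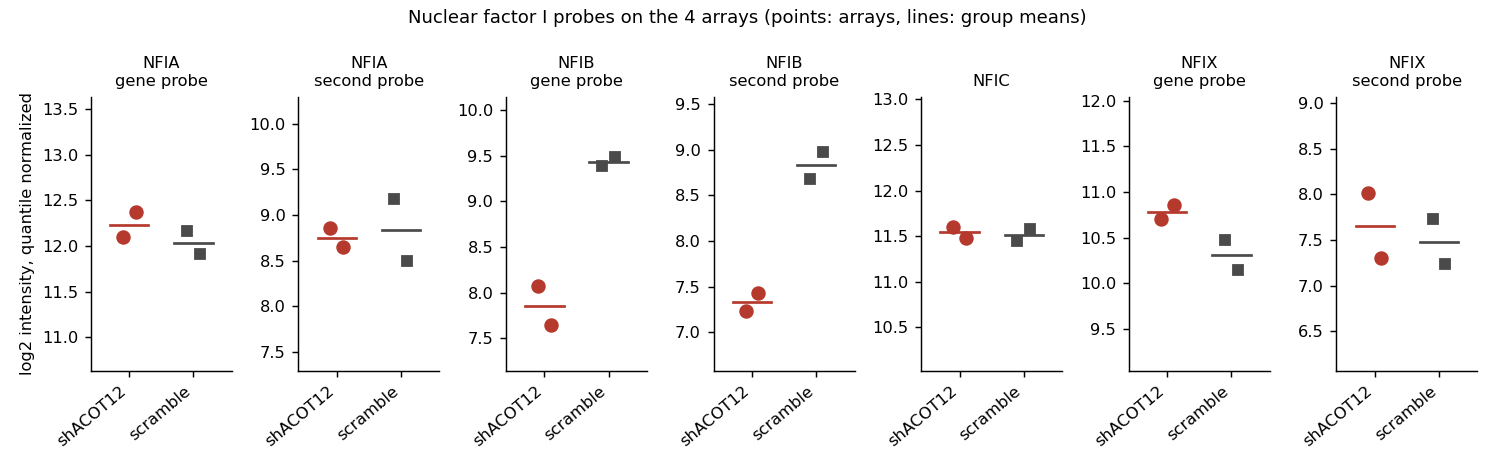
Log2 intensity (vertical axis, quantile normalized, with the same span in each panel) of the 7 NFI probes, with the shACOT12 arrays as red circles left and the scramble arrays as grey squares right; lines are group means (n = 2 each). At both NFIB probes the shACOT12 arrays lie below the scramble arrays, while at NFIC and at both NFIA probes the groups overlap.

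NFIA, the family member best known for astrocyte formation in mouse, had overlapping groups at both of its probes. Its gene probe (PH_hs_0049041) had deposited intensities of 4242 and 5313 on the shACOT12 arrays and 4554 and 3933 on the scramble arrays. The log2 means were 12.24 ± 0.19 and 12.04 ± 0.18 in shACOT12 and scramble cells (SD, n = 2 each), a fold change of 0.20 (SE 0.29, limma adjusted p = 1) with a 95% confidence interval of -0.49 to 0.88. The second NFIA probe (PH_hs_0010425) had 397 and 469 on the shACOT12 arrays and 569 and 370 on the scramble arrays, a fold change of -0.09 with overlapping groups. The NFIA probes thus stood on opposite sides of 0, each by less than its SE.

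NFIC, a widely expressed member, had the fold change closest to 0 of the 4. Its single probe (PH_hs_0020571) had deposited intensities of 2996 and 2942 on the shACOT12 arrays and 2768 and 3143 on the scramble arrays. The deposited shACOT12 values lay between the scramble values. The fold change was 0.032 (SE 0.27, limma adjusted p = 1) with a 95% confidence interval of -0.62 to 0.69 and with log2 means of 11.54 ± 0.09 in shACOT12 and 11.51 ± 0.10 in scramble cells (SD, n = 2 each). The interval covers changes of either sign.

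NFIX was the member with the highest fold change of the 4. Its gene probe (PH_hs_0002882) had deposited intensities of 1557 and 1938 on the shACOT12 arrays and 1404 and 1159 on the scramble arrays, without overlap. After normalization it stood at 10.70 and 10.86 on the shACOT12 arrays and 10.47 and 10.14 on the scramble arrays. The fold change of 0.47 (SE 0.29, 95% confidence interval -0.22 to 1.16) did not pass the test (limma adjusted p = 1). Its second probe (PH_hs_0047666) gave 213 and 199 on the shACOT12 arrays and 208 and 150 on the scramble arrays, a fold change of 0.18 (SE 0.37 in the fit with a row per probe) with overlapping groups. Across the family, groups lay apart for 2 of 4 genes, NFIB by choice and NFIX, beside 21.5% of all genes, and 0 of NFIA, NFIC and NFIX passed the limma adjusted threshold or an unadjusted p of 0.05, which 1.76% of all genes passed.

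Other scalings moved the values of the gene probes little. With 75th percentile scaling, cyclic loess and the values as deposited, the NFIB gene probe gave -1.54, -1.55 and -1.57 and its second probe -1.48, -1.50 and -1.51. With each array left out once, NFIB stood between -1.79 and -1.36 at the gene probe and between -1.65 and -1.35 at the second probe. For NFIX the gene probe ranged from 0.30 to 0.64 without 1 array, but its second probe stood at -0.18 without shACOT12 replicate 1 and -0.07 without scramble replicate 2. For NFIA the gene probe ranged from 0.06 to 0.33 and the second probe from -0.43 without scramble replicate 2 to 0.25 without scramble replicate 1. NFIC turned to -0.029 without shACOT12 replicate 1 and -0.036 without scramble replicate 1.

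**Figure D2:**
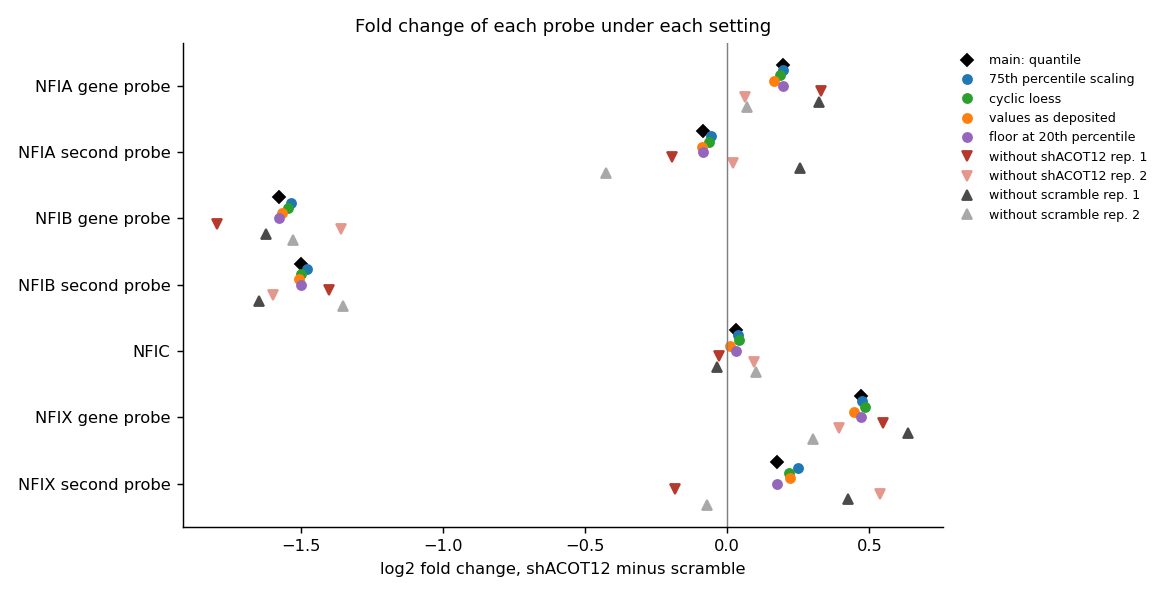
Log2 fold change, shACOT12 minus scramble (horizontal axis), of each NFI probe under 9 settings (symbols: the main setting, other scalings or a raised floor, and each array left out in turn). Both NFIB probes stay between -1.79 and -1.35, while the second probes of NFIA and NFIX and the NFIC probe have settings on both sides of 0.

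The genes whose values lay nearest to those of NFIB were sought by the Euclidean distance between log2 values centred on each gene's mean over the 4 arrays, among genes at or above the median. Since NFIB was chosen for a lower value in shACOT12 cells, its nearest genes share that difference by construction. KRABD1, named for its KRAB domain, was nearest at a distance of 0.51, with 11.11 and 11.05 on the shACOT12 arrays and 12.37 and 12.18 on the scramble arrays. KANK4, of a family of ankyrin repeat proteins, followed at 0.52, with 9.05 and 8.67 on the shACOT12 arrays and 9.81 and 10.05 on the scramble arrays. Then came GSTA3, an alpha-class glutathione transferase, at 0.53, ABCG5, which forms a sterol exporter with ABCG8, at 0.56, and GSTA2 at 0.56. Their fold changes were -1.26 for GSTA3, -1.18 for ABCG5 and -1.18 for GSTA2. Each of these 5 genes was lower on both shACOT12 arrays than on either scramble array. At the gene probes, none differed by as much as NFIB. NFIB itself, with a mean of 8.65, lay below the median of 9.14 that the search required of the other genes. Other probes gave -0.96 for KANK4, -1.51 for GSTA2 and -0.36 and -0.26 for GSTA3, and the probes of near-identical GSTA paralogs may not tell them apart. Under each of the other 3 scalings, 4 of the 5 were again among the nearest 5, with GSTA1 in place of the other.

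The genes nearest to the other members lay at smaller distances. Few genes were lower by as much as NFIB, with 32 at a lower fold change, so these distances do not compare the members. USP53, of the ubiquitin-specific protease family, lay 0.037 from NFIA and had a fold change of 0.19. LYRM1 lay 0.015 from NFIC, with a fold change of 0.046. THEM4, a thioesterase, lay 0.024 from NFIX, with 11.97 and 12.14 on the shACOT12 arrays and 11.77 and 11.41 on the scramble arrays. Such distances over 4 arrays describe these arrays and no more.

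**Figure D3:**
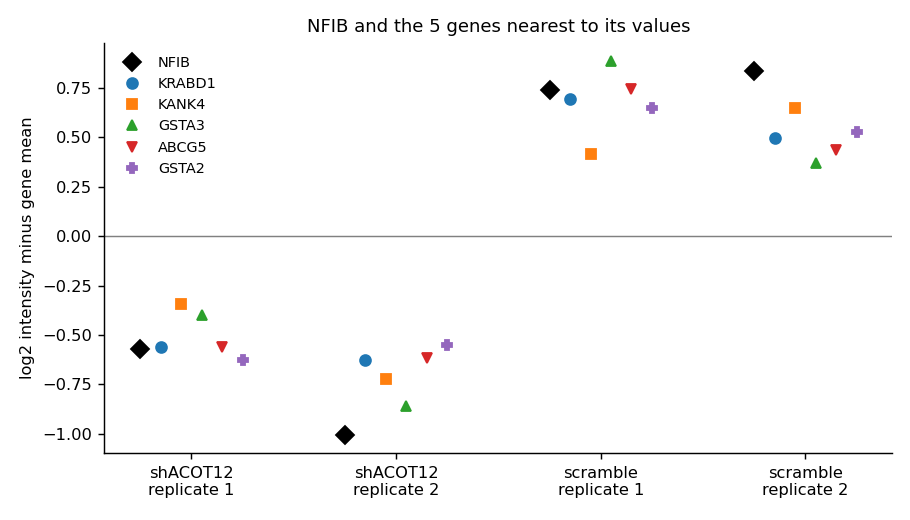
Log2 intensity minus the mean of each gene over the 4 arrays (vertical axis) for NFIB (black diamonds) and its 5 nearest genes, by array. The 6 genes lie below 0 on both shACOT12 arrays and above 0 on both scramble arrays, with NFIB reaching furthest at -1.01 on shACOT12 replicate 2.

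The genes that flank each member on its chromosome, the 2 nearest measured genes on each side in the RefSeq gene table, showed no change past the threshold. For NFIB these were MPDZ, a scaffold protein with many PDZ domains, and LINC00583 on one side, and ZDHHC21, a palmitoyltransferase, and CER1, a secreted BMP antagonist, on the other. MPDZ stood at 6.93 and 7.38 on the shACOT12 arrays and 7.19 and 7.03 on the scramble arrays, a fold change of 0.044. LINC00583 stood at -0.09, ZDHHC21 at 0.05 and CER1 at 0.21, each with overlapping groups. None of the 4 neighbours had a lower value in shACOT12 cells beyond its SE. Of all 16 neighbours of the 4 genes, 0 passed the limma adjusted threshold, 0 had an unadjusted p under 0.05, and fold changes ran from -0.43 for NCLN, beside NFIC, to 0.49 for TM2D1, beside NFIA. Groups lay apart for 3 of the 16, PATJ beside NFIA and GADD45GIP1 and TRMT1 beside NFIX, where 21.5% of all genes do. NFIA-AS2, a non-coding gene beside NFIA, stood at -0.05. Both NFIB probes lay below that range.

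Genes that NFI proteins are known to act on were taken as a list of 27, many of them known from mouse, rat or chick cells, and all 27 were measured. Of these, 17 stood above 0 and 10 below it, with a median fold change of 0.08, beside 9816 of 19090 genes above 0 and a median of 0.0078 over all genes. None passed the limma adjusted threshold, as for all but 1 of all genes, and at an unadjusted p under 0.05 there were 2, KLF4 higher and PCK1 lower, beside 1.76% of all genes. Groups lay apart for 7 of 27, or 25.9%, close to the 21.5% of all genes. Without scramble replicate 1 the median turned to -0.07, with 17 members below 0, and without scramble replicate 2 it was 0.23, with 9 below 0. The list was not split into genes that NFI activates and genes that it represses. The counts and medians therefore cannot show whether the targets followed NFIB.

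FN1, which encodes fibronectin and has an NFI site known from the rat gene, led the brighter targets. It stood at 16.58 and 16.68 on the shACOT12 arrays and 17.10 and 17.29 on the scramble arrays, a fold change of -0.57 (SE 0.28, limma adjusted p = 1). Its second probe gave -0.31, also without overlap. The FN1 window above, picked for its NFI arms, holds 1 arm, which is part of GCCAAT. ALB, the albumin gene, stood at 17.64 and 17.74 on the shACOT12 arrays and 17.19 and 17.20 on the scramble arrays, a fold change of 0.49 (SE 0.27, limma adjusted p = 1). FN1 and ALB thus lay apart between the groups in opposite directions. SLC2A4, the insulin-responsive glucose transporter that NFI represses in mouse adipocytes, stood at -0.35 with overlapping groups (second probe -0.029).

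Among the dimmer targets, KLF4, a transcription factor downstream of NFIC in mouse tooth cells, had a fold change of 0.92. It stood at 6.18 and 5.82 on the shACOT12 arrays and 4.95 and 5.20 on the scramble arrays. Its mean of 5.54 lay well below the median of 9.14 over all genes. PCK1, the cytosolic enzyme that commits carbon to gluconeogenesis, stood at 7.28 and 6.70 on the shACOT12 arrays and 7.59 and 8.89 on the scramble arrays, a fold change of -1.25. KLF4 and PCK1 are named because their unadjusted p was under 0.05, chosen after their values were seen. Of targets known from glia, GFAP, the astrocyte filament, stood at a fold change of -0.39 and FABP7, the brain fatty acid binding protein, at -0.28, both with overlapping groups and read below the median of all genes. Of those known from mouse cerebellar neurons, the adhesion genes CNTN2 and CDH2 stood at 0.34 and 0.29. In each, the shACOT12 values lay above the scramble values. CNTN2 was dim on every array, between 4.39 and 4.87. GABRA6 and EFNB1, also on the target list, stood at 0.21 and 0.096 with overlapping groups. Their means were 12.48 and 6.22, so GABRA6 was read above the median of all genes. Whether its probe reads GABRA6 RNA in these cells was not tested. EZH2, a histone methyltransferase that NFIB represses in mouse brain, stood at 13.02 and 12.69 on the shACOT12 arrays and 12.87 and 12.67 on the scramble arrays, a fold change of 0.08. CDKN1A, the cell cycle inhibitor that NFI represses in human cells, stood at -0.022.

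**Figure D4:**
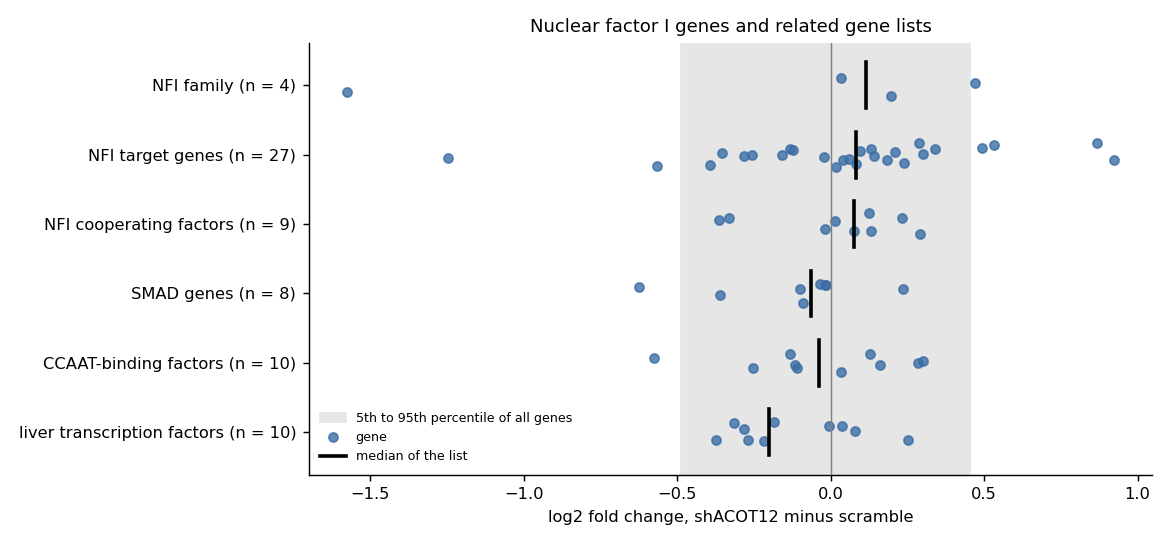
Log2 fold change, shACOT12 minus scramble (horizontal axis), of each gene (points) in the NFI family and 5 related lists, with the median of each list (black bars); the grey band spans the 5th to 95th percentile of all genes, -0.49 to 0.45. NFIB at -1.58 and PCK1 at -1.25 are the lowest points, and the medians lie between -0.20 and 0.11.

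Factors that work beside NFI proteins, from steroid receptors to the general transcription factor TFIIB, stood near 0. Of 11 listed, 9 were measured, 6 above and 3 below 0, with a median of 0.07 that ran from 0.022 to 0.19 with each array left out, and limma gave 0 past the adjusted threshold and 0 at an unadjusted p under 0.05. SP1, a zinc finger factor that competes with NFI at some promoters, stood at -0.33 (second probe 0.12). NR3C1, the glucocorticoid receptor, stood at 0.29 (other probes 0.24 and -0.07), and CREBBP, a histone acetyltransferase, at 0.23 (second probe -0.11). FOXA1, which opens chromatin at sites that NFIB shares in prostate cells, stood at 0.12.

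The SMAD genes were listed because the SMAD DNA-binding domain is related in structure to that of NFI. Of the 8 measured, 7 stood below 0, with a median of -0.06, beside 9274 of 19090 genes below 0. Among the 7 were SMAD4 at -0.016, SMAD1 at -0.019 and SMAD7 at -0.036. SMAD6, which inhibits BMP signalling, stood at 10.94 and 10.55 on the shACOT12 arrays and 11.18 and 11.56 on the scramble arrays, a fold change of -0.62 (SE 0.31, limma adjusted p = 1). SMAD5, a BMP signal transducer, stood at -0.36 at its gene probe and at 0.00046 at its second probe. SMAD3, which transmits TGF-beta signals, stood at 0.24 (other probes 0.12 and 0.13). Limma gave 0 SMAD genes past the adjusted threshold and 0 at an unadjusted p under 0.05. The count of 7 fell to 4 without shACOT12 replicate 2 and to 3 without scramble replicate 2. It was 5 with 75th percentile scaling and 6 with the values as deposited.

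Other factors named for the CCAAT box stood on both sides of 0. Of 10 measured, 5 stood above and 5 below 0, with a median of -0.04; without shACOT12 replicate 1, 8 stood below 0. CEBPB stood at 12.12 and 12.64 on the shACOT12 arrays and 12.41 and 13.50 on the scramble arrays, a fold change of -0.58 with overlapping groups. CEBPZ stood at 0.30 and NFYC, a subunit of the CCAAT-binding NF-Y complex, at 0.28, with 0.015, 1.19 and -0.046 at its other probes. Liver transcription factors were below 0 for 7 of the 10 measured of 15 listed, with a median of -0.20, and groups lay apart for 5 of the 10, beside 21.5% of all genes. That median was -0.08 without scramble replicate 2, -0.12 without shACOT12 replicate 2 and -0.13 without shACOT12 replicate 1. FOXA3 stood at 11.30 and 11.30 on the shACOT12 arrays and 11.79 and 11.56 on the scramble arrays, a fold change of -0.37. FOXA2 stood at 16.75 and 16.76 on the shACOT12 arrays and 17.00 and 17.08 on the scramble arrays, a fold change of -0.28. PPARA, a receptor that drives fatty acid oxidation, stood at -0.31 with overlapping groups (other probes 0.13 and -0.53). For both lists limma gave 0 genes past the adjusted threshold and 0 at an unadjusted p under 0.05, and no list was tested as a set.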

How the data were processed

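Total RNA was amplified to aminoallyl RNA and labelled with Cy5 alone, per the labels' protocols. The authors deposited intensities on a linear scale, some below 0; scanner, background correction and normalization are not given in the sources used here. No detection flags were used. Intensities under 1 were set to 1 and converted to log2, and the arrays, whose log2 medians differed by 0.46, were quantile normalized, which would hide a shift of most genes. Of 28264 probes, 25893 had 1 symbol in the platform's annotation and 2371 had none. The comparison used limma 3.58.1 (R 4.3.3; lmFit and eBayes without a block), fitted over all genes and, for second probes, over all probes, with Benjamini-Hochberg adjustment and a threshold of 0.05; the fit was tested on simulated data. Named were all members and probes, ACOT12, the 3 genes of each list with the largest change at or above the median of all genes, the nearest genes and the chromosomal neighbours; further genes were chosen after their values were seen. Members and lists were chosen with earlier results of these data known. The array's build is not named, so no coordinates are given for genes or probes; RefSeq (GRCh38.p14) gave the gene order and the promoter windows, with their coordinates. Alternatives were other scalings, a raised floor, the mean of probes, a filter on dim genes, other priors, the replicate number as a block and leaving out each array.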

Additional observations from a re-analysis of the deposited data

How the results depend on the processing

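NFIB ranged from -1.58 to -1.54 and NFIX from 0.32 to 0.49 over 10 other settings of scaling, floor, probe rule, filter, prior and block, and from -1.79 to -1.36 and 0.30 to 0.64 without 1 array; NFIA ranged from 0.06 to 0.20 and from 0.06 to 0.33. NFIC ranged from -0.036 to 0.10 and ACOT12 from -0.80 to 0.0039 without 1 array, so both changed sign there. NFIA, NFIC, NFIX and ACOT12 passed limma's adjusted threshold in 0 of these settings, as did the members of the gene lists. The count of genes past it, 1 in the main setting, was 0 with 75th percentile scaling, cyclic loess, the values as deposited and a floor at the 20th percentile (180, 308, 157 and 672 at an unadjusted p under 0.05), 3 with an intensity trend (RASD1, GJA1 and HDGFL3), and 0 to 4 without 1 array, the 4 being RASD1, GRB10, LARP4B and TMEM213 without shACOT12 replicate 2 (251 to 767 at an unadjusted p under 0.05); the cause was not tested. With the dimmest 30% of genes left out the 1 gene was HDGFL3 and not RASD1. With the replicate number as a block 25 genes passed; the arrays share only a number, and their deviations from the group means correlated at 0.28 over 9545 genes. Detection flags were not used, so signal over background could not be given.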
